A study of Mus musculus with 2 samples.

Results

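The contractile genes of smooth muscle were followed in fetal mouse lung with and without a working copy of Foxj1. The members are 10 genes, Acta2, Tagln, Myh11, Cnn1, Des, Actg2, Smtn, Lmod1, Mylk and Myl9. They were taken by symbol from the annotation of the array's mouse transcript probes, and 17 of 41174 such probes carry their names. All 10 were among the 21171 genes well above background, and all 10 were measured in both channels. The mutant lung came from an embryo homozygous for the Foxj1lacZ allele (Foxj1 –/–), and the other from a heterozygous (Foxj1 +/–) littermate. Both embryos were male, at E16.5 (embryonic stage), on an Sv129/CD-1 hybrid background, so both lungs carry the lacZ allele and no wild-type lung was compared. The source names say lung epithelium, but the protocol describes lobes freed of extralobular tissue, with no step that separates epithelium, and the genes below are those of muscle.

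Smooth muscle wraps the airways and the arteries of the lung, and in the fetus it forms from mesenchyme around the growing tubes. It contracts when calcium and calmodulin activate myosin light chain kinase, which phosphorylates the regulatory light chain of myosin so that myosin can pull on actin. Serum response factor, together with its partner myocardin, is known to drive many of the contractile genes through CArG boxes, A/T-rich elements in their promoters. In airway muscle of fetal lung these genes are standard markers, and Acta2 and Tagln also appear in other contractile mesenchymal cells.

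Both RNAs were hybridised to 1 array with 2 colours, homozygous in Cy5 and heterozygous in Cy3, and no dye swap was made. Genotype and animal cannot be told apart from dye. Each genotype is 1 lung, so no test was possible and no p-value is given. Every ratio below is log2 of homozygous over heterozygous, and levels are normalized log2 intensities of the same probe in each channel. Errors given after ± come from the scanner software's error model, turned to log2. They describe noise of spots and channels as modelled for the scanner's own log ratio, and leave out variation between animals. For the contractile genes they were 0.20 or 0.21, larger than the median SD between copies of a probe given below. Of 43379 spots, 75.6% were well above background in the homozygous and 69.0% in the heterozygous channel, and saturation affected 0 spots. Copies of the same probe differed by a median SD of 0.045 (215 probes), and different probes of the same gene by 0.16 (7144 genes). Foxj1 stood at 7.61 in the homozygous and 9.53 in the heterozygous channel, a ratio of −1.92 ± 0.30. The position of its probe relative to the lacZ insertion was not determined, so this value may not check the labels. Among lung markers, Nkx2-1 stood at 13.01 and 13.16 and Sftpc at 17.41 and 17.09, homozygous first, so lung epithelial transcripts were plentiful in both channels. In whole lobes, fewer cells of a type and less RNA per cell cannot be told apart.

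The measurements rest on oligonucleotide probes, and 4 of the 17 span more genomic bases than the oligo holds, so that they join neighbouring exons. Of these, 3 are shown because they read spliced transcripts of the smooth muscle actin, the myosin heavy chain and desmin, and they are given as the file lists them, with mm8 positions and no letters marked.
Acta2, chr19:34314502-34317756, minus strand: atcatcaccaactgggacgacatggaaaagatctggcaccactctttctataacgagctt
Myh11, chr16:14108708-14111632, minus strand: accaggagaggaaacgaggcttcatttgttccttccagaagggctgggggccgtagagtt
Des, chr1:75249977-75250202, plus strand: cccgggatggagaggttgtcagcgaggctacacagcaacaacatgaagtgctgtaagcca
Actins are near-identical proteins, and binding of the Acta2 and Actg2 oligos to transcripts of other actins was not tested.

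RefSeq promoter windows (GRCm38.p6) were given for 7 members, Des, Lmod1, Myl9, Cnn1, Smtn, Mylk and Acta2. The 250 bases before the start site were searched on both strands. A CArG box was found in 1 of the 7, that of Myl9, and in 1.47% of all 32851 windows. The looser form, in which 1 of the 6 central A/T bases is G or C, was found for Myl9 and Acta2, 2 of the 7, and in 7.24% of all windows. The windows of these members are shown because both hold such elements, and capitals mark the elements.
Acta2, chr19:34255374-34255623, minus strand: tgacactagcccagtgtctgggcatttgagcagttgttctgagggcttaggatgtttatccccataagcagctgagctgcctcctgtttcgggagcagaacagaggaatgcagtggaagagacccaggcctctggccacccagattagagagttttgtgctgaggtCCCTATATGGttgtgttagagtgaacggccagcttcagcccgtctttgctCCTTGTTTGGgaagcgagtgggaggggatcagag
Myl9, chr2:156775214-156775463, plus strand: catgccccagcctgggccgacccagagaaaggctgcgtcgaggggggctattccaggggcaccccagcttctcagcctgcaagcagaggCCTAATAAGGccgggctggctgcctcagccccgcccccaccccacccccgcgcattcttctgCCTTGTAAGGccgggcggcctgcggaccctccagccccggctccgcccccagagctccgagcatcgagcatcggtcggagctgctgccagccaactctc
The Acta2 elements begin at −84 and −34 from the start site and both carry a central mismatch. In Myl9 the exact box begins at −161 and the mismatched one at −99. The word CATTCC, the MCAT element known from muscle promoters, was found for Lmod1, Smtn, Mylk and Acta2 (4 of 7, against 12.6% of all windows), and TATAAA for 0 of 7 (12.4% of all windows). These matches describe letters only, and no binding was measured.

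Contractile genes had ratios at or slightly above 0, all of them under 2-fold. The median of the 10 was 0.20, against 0.00 over all genes, and single genes ran from −0.02 for Des to 0.52 for Cnn1. Of the 10, 9 had a ratio above 0, against 49.6% of all genes, although Tagln was there by only 0.003. In 4 of 10 the ratio was above its own scanner error, against 14.9% of all genes, and in 0 of 10 it was below minus that error, against 20.1%. At the 2-fold rule 0 of 10 were higher (0.576% of all genes) and 0 of 10 lower (1.88%). The 10 genes were brighter than most, with a median log2 intensity of 12.90 against 8.83 over all genes. The non-muscle and striated relatives, at 12.74, had a median ratio of 0.08. Of these 22 measured genes, 15 were above 0, 7 above their error and 4 below minus their error. The 10 contractile genes were chosen with earlier ratios of this array known, so the counts describe them and are no independent evidence.

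**Figure D1:**
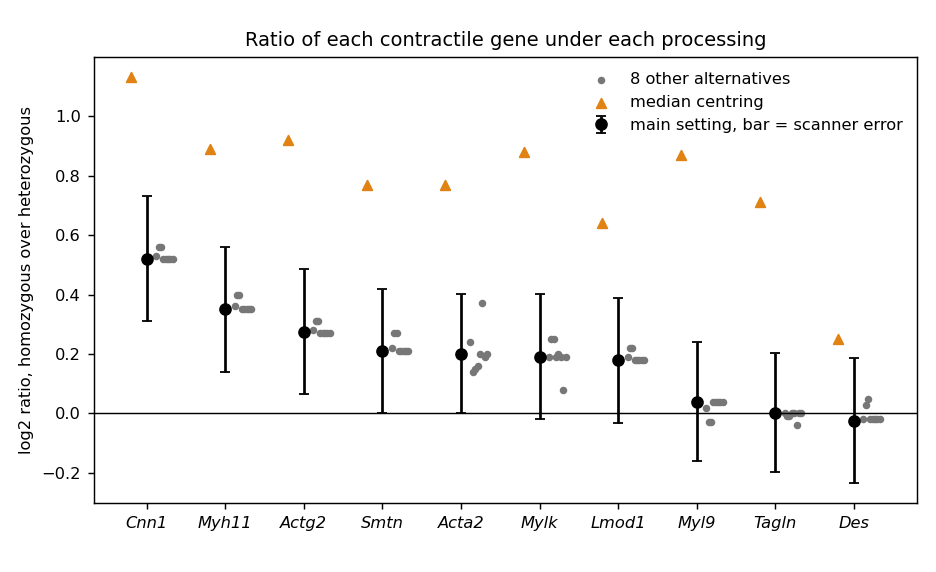
Log2 ratio of each contractile gene (homozygous over heterozygous) with the scanner error as bar, beside the values under median centring (triangles) and the 8 other alternatives (grey). Cnn1 is highest at 0.52 and Des lowest at −0.02; median centring lifts every gene, Cnn1 to 1.13.

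The largest ratio was that of Cnn1, calponin 1, an actin-binding protein that restrains the myosin ATPase in smooth muscle. Its probe stood at 12.92 in the homozygous and 12.40 in the heterozygous channel, 1.43-fold higher, a ratio of 0.52 ± 0.21. The authors' deposited matrix lists 7031 for the homozygous and 4783 for the heterozygous sample. It lies on chr9:21859016-21859075 of mm8 (plus strand). The ratio was more than its scanner error, but it comes from 1 spot on each channel.

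Among the motor genes, Myh11 encodes the smooth muscle myosin heavy chain, the most specific of the common markers. It stood at 11.12 in the homozygous and 10.77 in the heterozygous channel, 1.28-fold higher at 0.35 ± 0.21, with deposited values of 2120 and 1604 in that order. Myl9, the regulatory light chain that the kinase phosphorylates, differed hardly at all, with 15.11 in the homozygous and 15.08 in the heterozygous channel (0.04 ± 0.20). The ratios of heavy chain and light chain differed by more than the scanner error of either. Each rests on 1 spot, and the error of the difference, which combines both errors, was not computed. The non-muscle heavy chains were not uniform. Myh9 stood at 0.01 ± 0.20, Myh10 at 0.34 ± 0.21 and Myh14 at −0.46 ± 0.21. The non-muscle light chains Myl12a (0.21 ± 0.21) and Myl12b (0.17 ± 0.20) and the essential light chain Myl6 (0.64 ± 0.21) were above 0, and Myl6b, a relative of Myl6, was dim, at 7.80 in the homozygous and 7.71 in the heterozygous channel (0.08 ± 0.22). For Myl12b the probes stood at −0.14 and 0.47, and for Myl6 at 0.39 and 0.90. Myl6 is very bright, at a mean log2 intensity of 17.02, where the median ratio of all genes was 0.38.

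Mylk encodes the myosin light chain kinase, in a long non-muscle and a short smooth muscle form. Its gene value was 0.19 ± 0.21, the median of 3 probes. Which transcripts of the gene these probes read was not determined, so the value cannot be assigned to either form. The probe at chr16:34916500-34916559 stood at 13.83 in the homozygous and 13.64 in the heterozygous channel, and that at chr16:34914823-34914882 at 13.67 and 13.47 in the same order. These bright probes gave 0.19 and 0.21. The third, designed from a cDNA clone at chr16:34873779-34873838, was dim, at 6.54 in the homozygous and 6.71 in the heterozygous channel, and only its Cy5 signal passed the background limit. Its ratio of −0.17 ± 0.46 was within its error. The kinases of other muscle, Mylk2 of skeletal muscle (−0.44 ± 0.24) and Mylk3 of heart (−0.05 ± 0.40), had no ratio above 0.

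Acta2, the smooth muscle alpha-actin and the usual marker in tissue sections, has 5 probes, and 4 were kept. Its gene value was 0.20 ± 0.20, with kept probes from 0.01 to 0.37. The brightest, at chr19:34307567-34307626, is printed in 10 spots, of which the scanner marked 1 as an outlier (13.30 homozygous, 13.06 heterozygous). Over the other 9 spots its level ran from 15.98 to 16.20 (median 16.07) in the homozygous and from 15.60 to 15.84 (median 15.70) in the heterozygous channel, without overlap. The ratio there was 0.37 with an SD of 0.038 between spots, all 9 above 0. The spots are copies on 1 array and not replicates of a lung.

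The other Acta2 probes gave smaller ratios. The exon-joining oligo printed above stood at 14.99 in the homozygous and 14.83 in the heterozygous channel (0.16 ± 0.20). A probe at chr19:34307204-34307263 gave 11.39 and 11.38 in that order (0.01 ± 0.20). A dim probe from a cDNA clone, at chr19:34306703-34306761, stood at 7.09 and 6.85 (0.24 ± 0.30), and that from another clone, at chr19:34319453-34319512, was not well above background in either channel. The probe with the highest ratio is also the brightest, at a mean log2 intensity of 15.90. Genes from 15 to 16, the range that holds this probe, had a median ratio of 0.04, and those from 16 to 17 had 0.54. The part of intensity in the Acta2 value was not tested. In the scanner's deposited log ratios the same 9 spots gave 0.11, from 0.06 to 0.15.

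**Figure D2:**
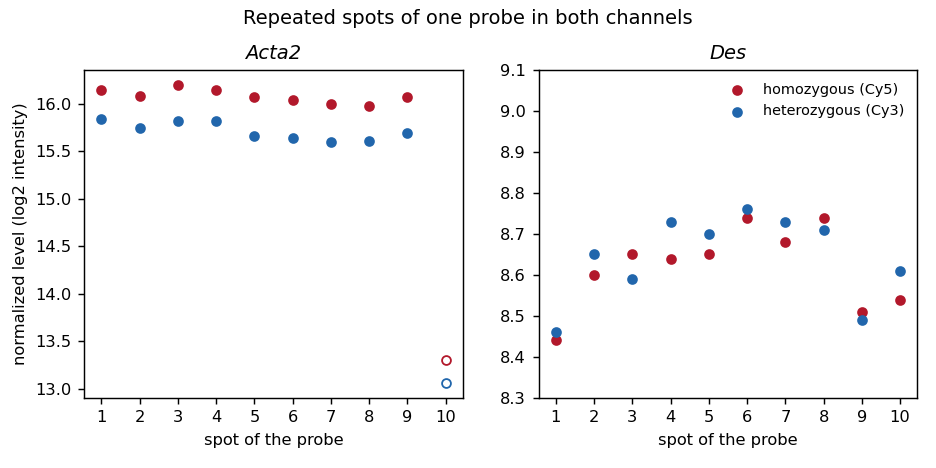
Normalized level of each of the 10 spots of the brightest Acta2 probe and of the Des probe, homozygous (red) and heterozygous (blue); open symbols are outlier spots left out. All 9 Acta2 spots are higher in the homozygous channel, while for Des the channels interleave.

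Actg2, the gamma-actin of enteric and visceral smooth muscle, stood at 13.32 in the homozygous and 13.05 in the heterozygous channel, 1.21-fold higher at 0.27 ± 0.21. Of the actins of other cells, Actc1 of heart was at −0.07 ± 0.20 and Acta1 of skeletal muscle at 0.25 ± 0.21. The cytoplasmic actins Actb (0.25 ± 0.21) and Actg1 (0.50 ± 0.21) were also above their errors. Ratios above 0 were seen beyond the smooth muscle actins. The probes of Actb stood apart, at −0.01 and 0.51, as did those of Actg1, at 0.22 and 0.78.

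Tagln, transgelin or SM22, is an actin-bundling protein that appears early in the lineage. Its probes disagreed in sign around 0. At chr9:45681009-45681068 the level was 14.82 in the homozygous and 14.86 in the heterozygous channel (−0.04 ± 0.20), and at chr9:45681828-45681887 it was 12.63 and 12.59 in that order (0.04 ± 0.20). Both ratios were far within their errors. Its relatives Tagln2 (0.16 ± 0.20) and Tagln3 (0.31 ± 0.22) lay above 0, and Tagln3 is known as a neuronal form. Calponins other than Cnn1 did not share its ratio, with Cnn2 at −0.27 ± 0.21 and Cnn3 at 0.09 ± 0.20.

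The thin-filament genes Smtn and Lmod1 lay near the middle of the 10. Smtn, smoothelin, which marks fully contractile muscle, stood at 11.50 in the homozygous and 11.29 in the heterozygous channel at chr11:3420834-3420893 (0.21 ± 0.21). Lmod1, leiomodin 1, which nucleates actin filaments in smooth muscle, stood at 9.88 and 9.70 in that order at chr1:137183145-137183203 (0.18 ± 0.21). Neither ratio is clearly past its error, though Smtn's is counted as above it by a margin lost in rounding. Among relatives, Smtnl2 was at 0.04 ± 0.20 and Lmod3, known from skeletal muscle, at −0.42 ± 0.21. Smtnl1 passed the background limit in Cy5 alone, Lmod2 in neither colour, and Mylk4 was not analysed here.

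Des, desmin, the intermediate filament of all muscle, was the lowest of the 10. Its probe is printed in 10 spots, whose levels ran from 8.44 to 8.74 (median 8.65) in the homozygous and from 8.46 to 8.76 (median 8.67) in the heterozygous channel. The ranges overlap almost wholly. The ratio was −0.02 ± 0.21, from −0.08 to 0.06 across the spots with an SD of 0.048, and 3 of 10 spots were above 0. The vimentin and nestin genes, which encode intermediate filaments of less differentiated cells, were also near 0, with Vim at 0.08 ± 0.20 and Nes at −0.004 ± 0.20.

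**Figure D3:**
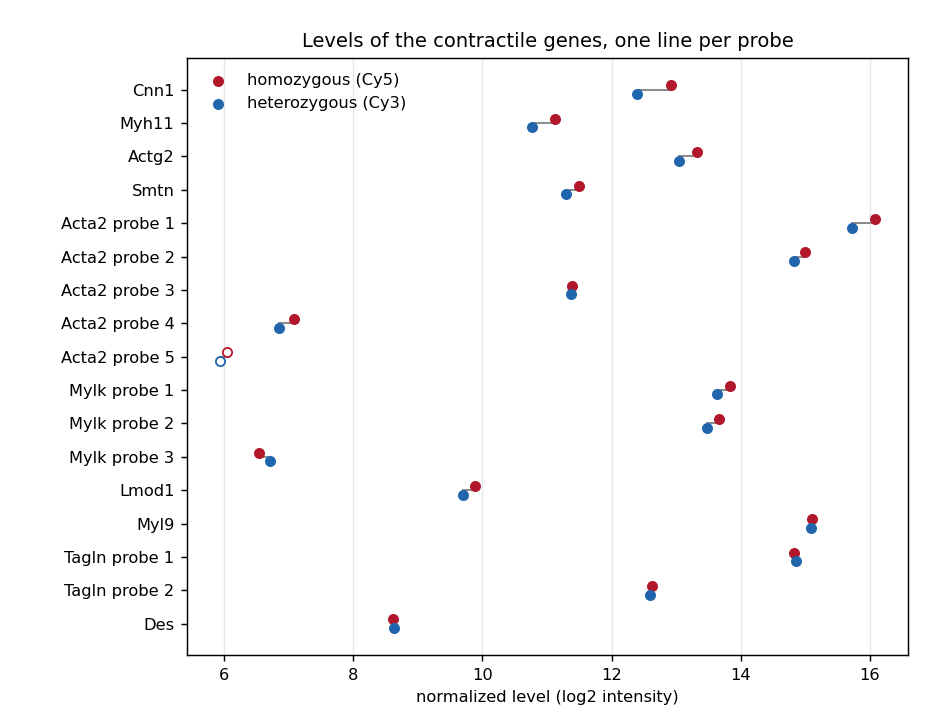
Normalized log2 level of each probe of the 10 genes, homozygous in red and heterozygous in blue, joined by a line; the open symbols are the probe not above background. The gap is widest for Cnn1 (12.92 and 12.40) and the channels coincide for Tagln, Myl9 and Des; levels of different probes cannot be compared.

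Desmin is made by striated as well as smooth muscle, and genes of heart and skeletal muscle differed on this array. Of 26 such genes, all measured and 24 of them in both channels, 9 were lower in the homozygous lung by 2-fold or more (1.88% of all genes) and 0 were higher by that much (0.576% of all genes). Their summed linear level was 13650 in the homozygous and 46430 in the heterozygous channel, and none was at 0. The atrial light chain Myl7 (−3.52 ± 0.39), the LIM protein Csrp3 (−2.79 ± 0.37) and the troponin Tnni3 (−2.74 ± 0.39) were lowest. Myl7 was the brightest of the list in the heterozygous channel, at 14.58 (11.06 homozygous), and weighed most in that channel's sum. Levels of different probes cannot be compared, so such sums follow the brightest probes. Also past 2-fold were the cardiac troponin Tnnt2 (−2.45), the slow troponins Tnni1 (−2.15) and Tnnc1 (−1.75), the atrial light chain Myl4 (−1.94), the creatine kinase Ckm (−1.06) and the cardiac heavy chain Myh6 (−1.005). The highest in both channels were the fast troponins Tnnc2 (0.64 ± 0.26) and Tnnt3 (0.23 ± 0.23) and the fast muscle actinin Actn3 (0.50 ± 0.27). Their part in the ratios of Des, Actc1 and Acta2, which heart muscle also makes in the embryo, was not tested.

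The other lists of the smooth muscle apparatus had medians nearer 0. Genes of the thin filament and its attachments had a median of 0.06 over 22 genes. In 2 the ratio was above its error (14.9% of all genes) and in 2 below minus its error (20.1%). Hspb6, a small heat shock protein linked to relaxation of smooth muscle, was highest (0.70 ± 0.22), followed by Csrp1, a LIM protein of smooth muscle (0.35 ± 0.21), and Pdlim7 (0.20 ± 0.21). Synm, an intermediate filament protein partner of desmin (−0.63 ± 0.21), Cald1, caldesmon (−0.26 ± 0.21), and the integrin Itga8 (−0.15 ± 0.20) were lowest. The 3 probes of the tropomyosin Tpm1 ran from −1.24 to 0.06.

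Genes that control contraction had a median of −0.01 over the 25 measured of 30, or 0.03 with the scanner software's log ratio. With median centring it was 0.38, where the median of all genes was 0.22. In 4 the ratio was above its error (14.9% of all genes) and in 5 below minus its error (20.1%), shares close to those of all genes. The endothelin receptors Ednrb (0.61 ± 0.21) and Ednra (0.49 ± 0.22), which receive a constrictor peptide, and Gucy1b1, a subunit of the nitric oxide receptor (0.50 ± 0.21), were highest. The angiotensin receptor Agtr1a (−0.80 ± 0.24) and Ppp1r12b, a targeting subunit of myosin phosphatase (−0.29 ± 0.22), were among the lowest. Probes of Gucy1b1 ran from −0.08 to 0.60 and those of Ppp1r12b from −0.52 to 0.37. The muscarinic receptors Chrm2 and Chrm3, by which nerves constrict airways, were not well above background in either channel.

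Regulators of smooth muscle genes had a median of −0.05 over 29 genes, 2 of them above (14.9% of all genes) and 9 below their errors (20.1%). With median centring the list's median was 0.27, where genes from 10 to 11 in log2 intensity had 0.50. The list's median intensity was 10.73. Srf itself (0.27 ± 0.21) and the mesenchymal forkhead gene Foxf1 (0.26 ± 0.21) were the highest, with the Notch target Heyl at 0.20 ± 0.21. The Notch target Hey1 (−0.73 ± 0.21), the mesenchymal ligand Wnt2 (−0.60 ± 0.21) and Klf4, a repressor of contractile genes (−0.55 ± 0.21), were lowest. Myocd, myocardin, was dim, at 7.72 in the homozygous and 7.83 in the heterozygous channel (−0.11 ± 0.24). The ratio of Srf was past its error, while that of Myocd was within its error, so the side of 0 on which Myocd lay was not resolved.

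Pericytes, the mural cells of small vessels, share several genes with smooth muscle, and most of their markers lay on the other side of 0. Of 9 measured pericyte genes, 8 had a ratio below 0, against 10680 of all 21171 genes. In 6 the ratio was below minus its error (20.1% of all genes), and the list's median was −0.39. With median centring it was 0.14, where all genes had 0.22 and genes from 11 to 12 in log2 intensity had 0.55. The list's median intensity was 11.19. The summed linear level of the pericyte genes was 22980 in the homozygous and 29070 in the heterozygous channel. That of the 10 contractile genes was 96200 and 87250 in the same order. The sum over all genes was also higher in the homozygous channel, 88760000 against 80470000. That sum includes the 225 genes from 16 to 17 in log2 intensity, whose median ratio was 0.54 and among which no contractile gene lies. In proportion to the heterozygous channel, the contractile sum was higher by about as much as that of all genes. The proteoglycan Cspg4 (−0.60 ± 0.21), Higd1b (−0.60 ± 0.21) and the potassium channel subunit Kcnj8 (−0.41 ± 0.21) were lowest. The 3 probes of Cspg4 ran from −0.67 to 0.05. The highest were the channel partner Abcc9 (0.08 ± 0.22), Pdgfrb, the receptor that recruits mural cells (−0.003 ± 0.20), and Cox4i2 (−0.13 ± 0.21). The difference between these lists was not tested, since the array holds 1 lung per genotype.

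General mesenchymal and myofibroblast genes had a median of −0.08 over 16 genes. In 3 the ratio was above its error (14.9% of all genes) and in 5 below minus its error (20.1%). With median centring the list's median was 0.42, where genes from 10 to 11 in log2 intensity had 0.50. The list's median intensity was 10.68. Eln, elastin (−0.79 ± 0.22), Postn, periostin (−0.55 ± 0.33), and Tnc, tenascin C (−0.41 ± 0.23), which contractile cells of the lung also secrete, were lowest. The collagen genes Col1a2 (0.48 ± 0.34) and Col1a1 (0.21 ± 0.21), and Twist2 (0.25 ± 0.21), were highest. The 12 lung epithelial genes had a median of 0.04, or −0.02 in the scanner's deposited log ratios. In 5 the ratio was above its error (14.9% of all genes) and in 4 below minus its error (20.1%). The secretoglobin Scgb1a1 (−2.47 ± 0.31) and the surfactant gene Sftpb (−1.72 ± 0.26) were past 2-fold lower, followed by the keratin Krt8 (−0.36 ± 0.21). Epcam (0.37 ± 0.21), Sftpc (0.33 ± 0.21) and Sox2 (0.27 ± 0.21) were highest there. Sftpc is very bright, at a mean log2 intensity of 17.25, where the median ratio of all genes was 0.38.

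**Figure D4:**
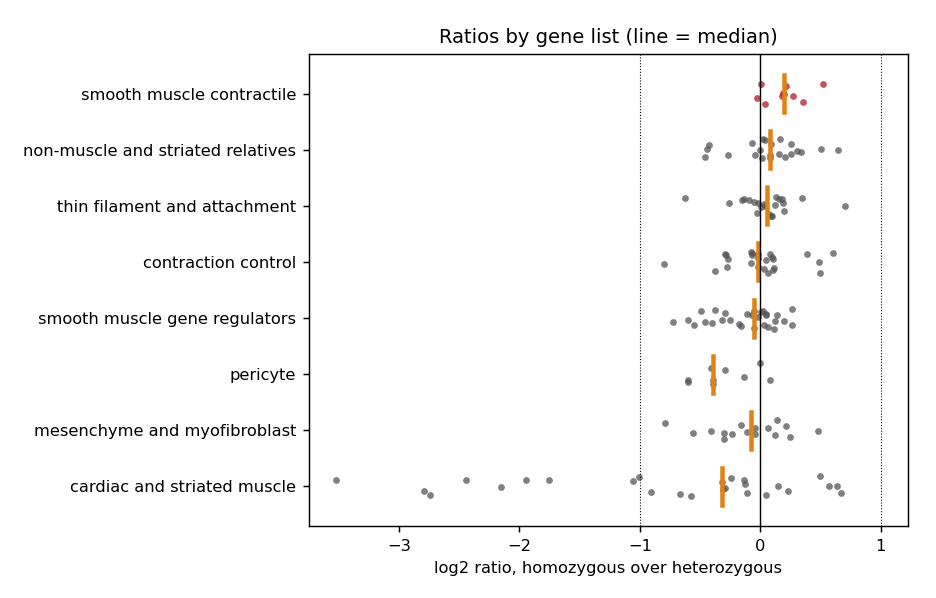
Log2 ratios (homozygous over heterozygous) of the genes of 8 lists, 1 point per gene, with the list's median as a line and dotted lines at 2-fold. The contractile genes lie from −0.02 to 0.52, the pericyte genes have their median at −0.39, and 9 cardiac and striated muscle genes lie beyond 2-fold lower.

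The ratios were also set beside genes of like brightness, since the median ratio moved with intensity on this array. From 8 to 16 on the log2 intensity scale, where all 10 contractile genes lie, the median of all genes stayed between −0.05 and 0.04 with the loess fit. Myl9 at 0.04 was level with the median of its intensity range (0.04). Cnn1 stood at 0.52 where the median was 0.01, and Myh11 at 0.35 where it was 0.02. With median centring, which leaves the trend with intensity in place, Cnn1 was at 1.13 where the median was 0.61, Myh11 at 0.89 where it was 0.50, and Tagln at 0.71 where it was 0.65. Des was then at 0.25 where the median was 0.19, and Myl9 at 0.87 where it was 0.90. The height of the ratios above 0 under that setting is shared by other genes of the same intensity. The contractile genes other than Des and Myl9 stood above the median of those genes in both settings. For Tagln the margin was within its error of 0.20, with 0.003 where the median was −0.02 under loess. In the scanner's log ratios Tagln was at −0.01 where the median was 0.02. Under loess the margin of Lmod1 was also within its error, at 0.18 ± 0.21 where the median was 0.02. Those of Smtn (0.21 ± 0.21 where it was 0.01) and Mylk (0.19 ± 0.21 where it was −0.02) were near their errors. With median centring Acta2 was at 0.77 where the median was 0.65, a margin within its error of 0.20. The intensity of Acta2, 13.15, is a median over kept probes from 6.97 to 15.90.

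**Figure D5:**
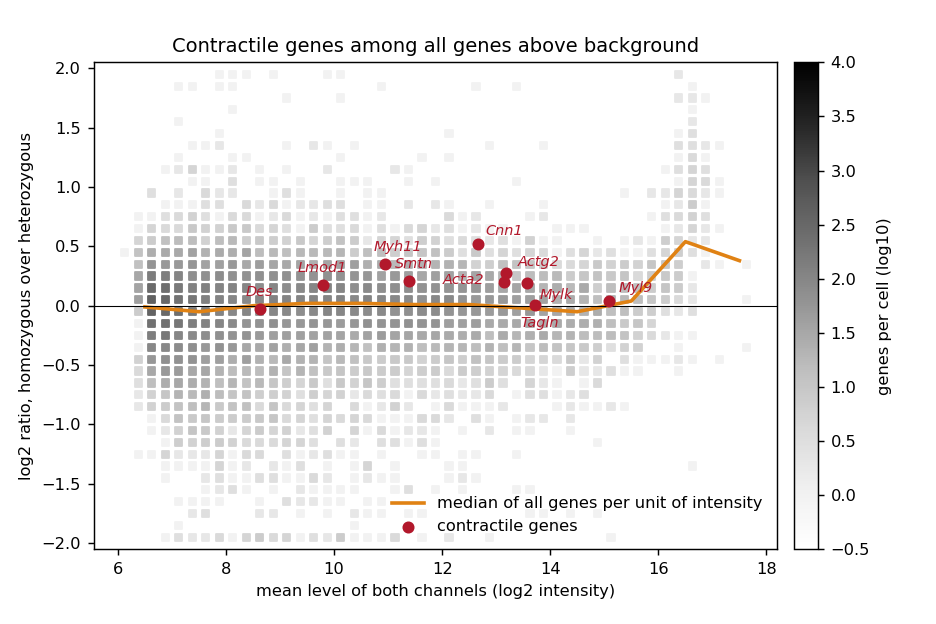
Log2 ratio (homozygous over heterozygous, drawn at the edge beyond ±2) against mean log2 intensity for all 21171 genes above background, shaded by number, with the contractile genes in red and the median per unit of intensity as a line. The line stays near 0 up to 16 and reaches 0.54 between 16 and 17; Cnn1 (0.52) lies highest among the contractile genes.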

How the data were processed

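Lung lobe RNA of 1 homozygous and 1 heterozygous embryo was hybridised to 1 Agilent array, deposited as 2 copies of its scanner file. Spot brightness and background were deposited as intensity on a linear scale, made with Agilent Feature Extraction 9.5.3.1 per the submitters' processing notes. The deposited log10 ratio is red (homozygous) over green (heterozygous) processed intensity, per the file headers, and its deposited error, a score on the same scale, was turned to log2. The deposited series matrix was found by comparison to give processed intensity of the matching channel, multiplied by 1.68 and floored at 15 (SD of the log2 factor 0.018 and 0.025, against 0.54 and 0.56 for the opposite channel). Its medians were 138.8 (homozygous) and 139.8 (heterozygous), so scale and direction are settled, and the reason for the factor is unknown.

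Mean signals were corrected with normexp (offset 50) and loess-normalized with controls at weight 0 in limma 3.58.1 (R 4.3.3), and checked on simulated data. The offset shrinks ratios of dim probes. The 169 outlier spots were left out, spots of a probe averaged, and probes kept when over a 0.5 share of spots was well above background in either channel. A gene took the median of its probes and its error the median of their scanner errors. RefSeq (GRCm38.p6) named 33102 of 41174 probes. Named are all members and relatives and, of the other lists, the 3 highest and 3 lowest genes measured in both channels and those past 2-fold. One gene under this rule and 1 oligo sequence are not reported here. Members and lists were chosen with earlier results of these data known. With 1 lung per genotype there is no test. Alternatives (9) varied offset, dye normalization, source of values, dim filter, probe summary and outlier spots. The number of arrays, 1, limits precision.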

Additional observations from a re-analysis of the deposited data

How the results depend on the processing

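Over 9 alternatives the direction of the contractile genes' median was kept. It ran from 0.18 to 0.24 under 8 of them and was 0.82 with median centring, where 10 genes were above their scanner error, 1 of them, Cnn1, was at least 2-fold higher (1.13) and the median of all genes was 0.22. The share of all genes above 0 was then 62.9% and the share above their error 49.4%. The number of genes above 0 ran from 8 to 10 and, without median centring, the number above their error from 4 to 6. It was 6 with the scanner's own log ratio, where the share of all genes was 27.2%. At the 2-fold rule the split of all genes moved from 0.576% higher and 1.88% lower to 3.42% and 1.43% with median centring. Cnn1 ran from 0.52 to 1.13, Myh11 from 0.35 to 0.89, Acta2 from 0.14 to 0.77 and Mylk from 0.08 (mean of probes) to 0.88. Des, Tagln and Myl9 changed side of 0 among alternatives, within −0.04 to 0.05 outside median centring. The pericyte median of −0.39 became 0.14 with median centring, which leaves the trend with intensity in place. Genes from 11 to 12 in log2 intensity, the range that holds the median intensity of the pericyte list, then had 0.55. No paired analysis was possible because each genotype has 1 lung, and no replicate could be left out. Alternatives share 1 array, so they do not bear on differences between animals or dyes.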
